A study of Mus musculus with 12 samples.

Results

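Lipid droplets are the stores of triglyceride in a cell, and the 10 genes described here encode their coat proteins, the lipases that empty them and the proteins that hold those lipases in check. The genes were chosen by name: the perilipins Plin2, Plin3, Plin4 and Plin5, the lipases Pnpla2, Pnpla3 and Lipe, the lipase co-activator Abhd5, the droplet enzyme Hsd17b13 and the lipase inhibitor Hilpda. All 10 were found among the 56980 genes of the count matrix and each passed the filter on low counts, which left 13768 genes to test. Pnpla3 passed it only through the livers of the standard diet, where its level was higher. RNA was sequenced from whole livers of 12 male mice of the strain B6.Cg-Lepob/J (ob/ob, genotype Lep-/-), which make no working leptin and become obese with fatty livers. The low protein diet (LPD) group comprised 6 livers of mice given chow with 5% of its energy as protein, and the standard protein diet (SPD) group 6 livers of mice given chow with 25%. Feeding began at 8 weeks of age, lasted 3 weeks with free access to food, and ended at 11 weeks. The lack of leptin was common to both diets, so the comparison is between the diets as a whole in mice of this strain and has no lean group.

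Perilipins coat the droplet surface and set how easily lipases reach the stored fat. Plin2 is the main coat protein of liver droplets, whose protein is degraded when it is not bound to a droplet, whereas Plin5 is found in tissues that burn fat and tethers droplets to mitochondria. Triglyceride is broken down stepwise: adipose triglyceride lipase, encoded by Pnpla2 and switched on by the Abhd5 protein, removes the first fatty acid, hormone-sensitive lipase (Lipe) cuts diglyceride, and monoglyceride lipase (Mgll) finishes. The small proteins G0s2 and Hilpda inhibit adipose triglyceride lipase.

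Libraries held 19404340 to 23681408 counts in the LPD group and 19374676 to 23710930 counts in the SPD group. For LPD replicate 1 the labels conflict: its title and library code name the low protein diet, and its treatment label the standard one, so values without it, or with it as SPD, are given where they change a call of the 10 genes. On the first principal component, LPD replicates 2 and 5 scored 48.7 and 44.6, and the remaining LPD livers 15.3 (replicate 1) to 22.5. SPD livers scored -32.1 to -24.7. For scale beside the marker counts, 20.7% of all genes tested were called higher and 19.2% lower in LPD, at an adjusted p under 0.05. Of the hepatocyte markers, 3 of 6 rose in LPD, and their summed level was 60996 to 83771 CPM (the gene's count scaled by the TMM-adjusted library total) in LPD livers and 70965 to 80046 CPM in SPD livers. The adipocyte messages Adipoq, Plin1, Cfd, Retn and Lep were too low to test: Plin1, the perilipin that coats adipocyte droplets, had at most 4 counts in a library, Adipoq at most 3 and Lep at most 1. The other 2 markers of that list, Car3 and Cidea, which fatty hepatocytes also express, rose and fell, and the list summed to 620 to 1886 CPM in LPD livers and 403 to 659 CPM in SPD livers. Car3 alone, at 1182 ± 521 CPM in LPD livers and 476 ± 89.8 CPM in SPD livers, made up most of this sum. Markers of lipid-associated macrophages, which also hold droplets, fell in 4 of 7 cases, with a summed level of 113 to 348 CPM in LPD livers, lowest in replicates 2 and 5, and of 444 to 724 CPM in SPD livers. Stellate cell markers fell in 3 of 6 cases (279 to 501 CPM in LPD and 413 to 575 CPM in SPD livers), endothelial markers in 1 of 5 (220 to 266 CPM in LPD and 254 to 284 CPM in SPD livers), and of 6 Kupffer cell markers 1 rose and 1 fell, with summed levels that overlapped between the diets (from 441 CPM in LPD livers and 516 to 793 CPM in SPD livers). Of 2 neutrophil markers tested, 1 fell (1.06 to 2.40 CPM in LPD and 1.99 to 7.89 CPM in SPD livers). The part of these cells in the results was not tested. In whole tissue, fewer cells of a type and less RNA per cell cannot be told apart.

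The sequences before the starts of 4 of the genes are shown because the results turn on these genes: Plin5, the mRNA that rose, its neighbour Plin4, which was not called, Plin2, the main coat gene, and Pnpla3, which fell most. RefSeq start sites on GRCm38.p6 were found for all 10 genes, with 13 windows in all, since some genes have more than 1 start; for Plin5 the upstream one of its 2 is shown. Each sequence below is printed 5′ to 3′ along the gene, with 250 bases before the start and the first 20 bases from it. Capitals mark AGGTCA, a half-site of nuclear receptors such as the PPARs, or CACGTG, the E-box, on either strand (AGGTCA on the other strand reads TGACCT here).
Plin5, chr17:56117529-56117798, minus strand: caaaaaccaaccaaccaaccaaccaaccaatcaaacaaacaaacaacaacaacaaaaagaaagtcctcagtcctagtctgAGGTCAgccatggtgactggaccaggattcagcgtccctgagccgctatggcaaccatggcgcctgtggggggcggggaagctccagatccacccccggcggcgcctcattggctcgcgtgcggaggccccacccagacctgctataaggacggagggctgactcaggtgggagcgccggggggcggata
Plin4, chr17:56109763-56110032, minus strand: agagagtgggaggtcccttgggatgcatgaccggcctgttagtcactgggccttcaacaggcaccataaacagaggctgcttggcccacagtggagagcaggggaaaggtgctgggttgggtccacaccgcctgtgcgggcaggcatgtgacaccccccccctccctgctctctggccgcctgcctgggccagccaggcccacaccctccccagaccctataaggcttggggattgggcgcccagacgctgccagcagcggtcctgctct
Plin2, chr4:86670040-86670309, minus strand: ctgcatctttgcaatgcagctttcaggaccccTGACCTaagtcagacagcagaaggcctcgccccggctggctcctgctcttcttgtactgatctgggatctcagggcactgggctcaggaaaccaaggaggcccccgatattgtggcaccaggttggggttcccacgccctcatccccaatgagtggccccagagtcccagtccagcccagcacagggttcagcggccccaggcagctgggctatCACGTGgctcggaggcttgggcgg
Pnpla3, chr15:84167566-84167835, plus strand: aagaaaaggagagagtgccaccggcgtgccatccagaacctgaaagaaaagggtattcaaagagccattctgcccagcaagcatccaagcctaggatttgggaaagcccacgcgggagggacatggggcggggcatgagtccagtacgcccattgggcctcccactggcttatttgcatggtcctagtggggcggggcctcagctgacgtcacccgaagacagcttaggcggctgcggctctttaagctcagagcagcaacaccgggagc

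Windows of 300 bases were searched on both strands for AGGTCA, for CACGTG, for the hypoxia response element core ACGTG, which every CACGTG contains, and for TCACNCC, the start of the sterol response element consensus. AGGTCA was present in 5 of the 13 windows, of Abhd5, Hsd17b13, Plin2 and Plin5, against 16.3% of all 32851 windows. ACGTG was found in 3 of the 13 (Hilpda, Lipe and Plin2), against 19.6% of all windows. CACGTG was found in 2 of the 13 (Lipe and Plin2), against 7.15% of all windows, and in Plin2 it spanned the start site. TCACNCC was found in 4 of the 13, of Abhd5, Plin3, Plin5 (at its downstream start site) and Pnpla2, against 15.6% of all windows. The printed sequences of Plin4 and Pnpla3 hold none of these motifs, which says nothing of the factors themselves.

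In LPD livers, 5 of the 10 mRNAs fell, Plin5 rose, and 4 were not called. The mRNAs that fell were Pnpla3, Plin2, Lipe, Abhd5 and Plin3, and those not called were Plin4, Hsd17b13, Hilpda and Pnpla2. Calls were made at an adjusted p under 0.05 in edgeR's quasi-likelihood test over all genes, where 39.9% of the genes tested were called, 20.7% as higher and 19.2% as lower in LPD. The call also had a fold of at least 2 for Pnpla3 alone of the 10, against 4.79% of all genes tested. The 6 called mRNAs were also those for which no LPD liver lay within the range of the SPD livers, 1 higher and 5 lower; of all genes tested 19.9% did not overlap, 10.2% higher and 9.73% lower. The median log2 fold change (LPD over SPD, as throughout) was -0.30 over the 10 genes and -0.00059 over all genes tested. The 5 falls and the Plin5 rise were called under each of the 22 alternative settings.

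**Figure D1:**
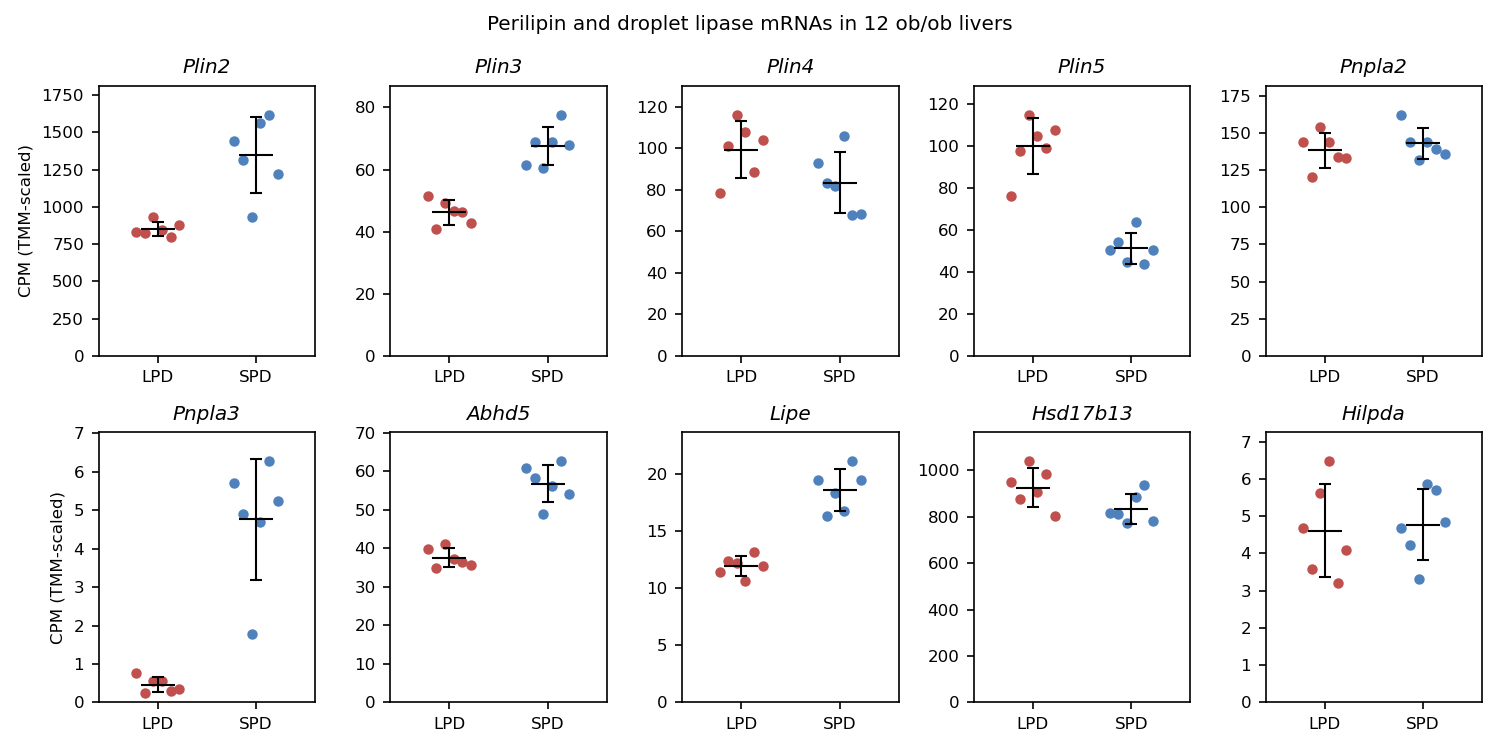
Level of each mRNA in every liver, in CPM, LPD livers on the left in red and SPD livers on the right in blue; each axis starts at 0, and the bar and whiskers are the mean and SD of 6 livers. The diets do not overlap for Plin2, Plin3, Plin5, Pnpla3, Abhd5 and Lipe, and overlap for Plin4, Pnpla2, Hsd17b13 and Hilpda.

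**Figure D2:**
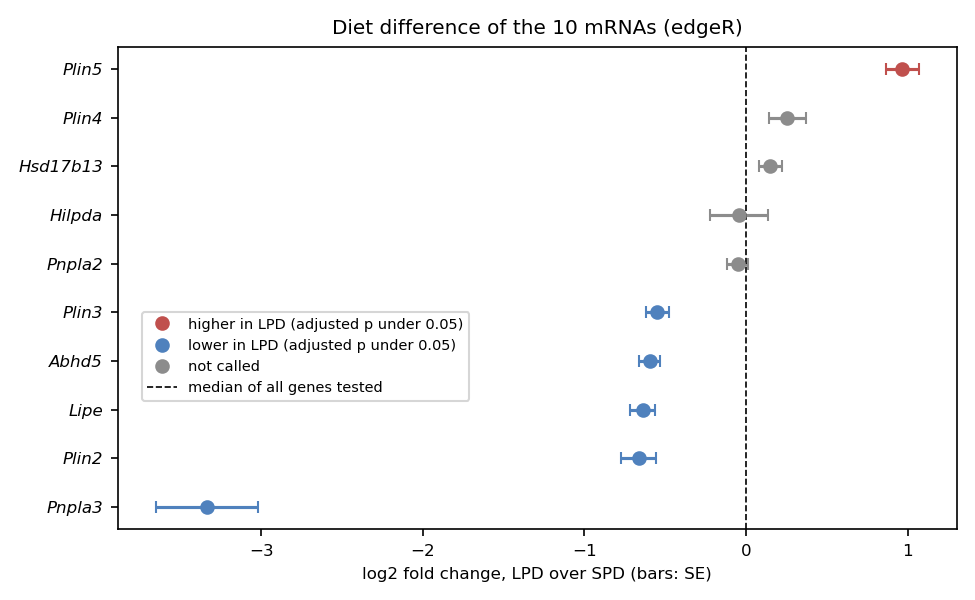
Log2 fold change of each mRNA, LPD over SPD, with its standard error; red marks a rise and blue a fall at an adjusted p under 0.05, grey no call, and the dashed line the median of all genes tested. Pnpla3 lies at -3.34, 4 mRNAs lie between -0.66 and -0.55, and Plin5 lies at 0.97.

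Among the coat proteins, Plin5 rose and Plin2 and Plin3 fell. Plin5 (ENSMUSG00000011305, chromosome 17, 56111601 to 56117596, minus strand, GRCm38) had 76.1, 102 and 115 CPM as the lowest, median and highest value in LPD livers, against 43.7, 50.7 and 64.0 CPM in SPD livers. Every LPD liver lay above every SPD liver, and LPD replicate 1 was the lowest of its diet. The level was 1.95-fold higher in LPD (log2 fold change 0.97 ± 0.10 SE, n = 6 per diet, edgeR adjusted p = 4.76e-06), and the log2 fold change was 1.04 without LPD replicate 1. Its log2 fold change ranked at 205 of 13768, counted from the highest.

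Plin2 (ENSMUSG00000028494, chromosome 4, 86648386 to 86670060, minus strand) had 797, 841 and 930 CPM as the lowest, median and highest value in LPD livers, against 935, 1379 and 1618 CPM in SPD livers. The LPD livers lay close together, with a coefficient of variation of 5.41% against 18.7% in SPD livers, where replicate 3 was the lowest at 935 CPM and nearly reached the highest LPD liver. The level was 1.58-fold lower in LPD (-0.66 ± 0.11, edgeR adjusted p = 0.000201). Without LPD replicates 2 and 5, the log2 fold change of Plin2 was -0.63 (edgeR adjusted p = 0.00145). Lipid-associated macrophage markers summed to 128 and 113 CPM in LPD replicates 2 and 5 and to 246 to 348 CPM in the other LPD livers. All LPD livers stayed below the 444 to 724 CPM of SPD livers, so this omission keeps a diet difference in these markers. Their part in the Plin2 fall was not tested.

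Plin3 (ENSMUSG00000024197, chromosome 17, 56277476 to 56292873, minus strand), a coat protein that moves between cytosol and new droplets, had 40.8, 46.4 and 51.5 CPM in LPD livers as lowest, median and highest, against 60.5, 68.5 and 77.7 CPM in SPD livers. The diets did not overlap, and the level was 1.46-fold lower in LPD (-0.55 ± 0.071, edgeR adjusted p = 2.75e-05), and the log2 fold change was -0.51 without LPD replicates 2 and 5. Plin4 (ENSMUSG00000002831, chromosome 17, 56100591 to 56109803, minus strand), a coat protein best known from adipocytes, had 78.6, 102 and 116 CPM in LPD livers and 67.9, 82.3 and 106 CPM in SPD livers. Of the 6 LPD livers 4 lay within the SPD range, and Plin4 was not called (0.26 ± 0.11, edgeR adjusted p = 0.0819). Plin4 was called higher without LPD replicate 1 (0.32, edgeR adjusted p = 0.0296), without SPD replicate 4 (0.34, edgeR adjusted p = 0.0220) and with LPD replicate 1 counted as SPD (0.33, edgeR adjusted p = 0.0260), and its adjusted p reached 0.383 in the libraries with codes SP1 and LP4 alone. Plin1 and Adipoq, the defining adipocyte messages, were at 0.050 ± 0.0681 and 0.00836 ± 0.0205 CPM in LPD livers and 0.025 ± 0.0412 and 0.0247 ± 0.0604 CPM in SPD livers. Cfd, also an adipocyte marker, was at 0.191 ± 0.159 CPM in LPD and 0.0236 ± 0.0261 CPM in SPD livers. Of that marker list Car3 rose (1.31 ± 0.24), Cidea fell (-1.30 ± 0.20), and the others were too low to test. A part of adipocyte RNA in the Plin4 level was not tested.

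With levels set per kilobase of the deposited gene length, Plin2 was the main perilipin mRNA of both diets. It made up 85.1 ± 1.04% of the summed level of Plin2 to Plin5 in LPD livers and 92.4 ± 1.18% in SPD livers (mean ± SD, n = 6 each). Plin5 took 9.52 ± 0.969% of it in LPD livers and 3.42 ± 0.587% in SPD livers, and Plin4 2.94 ± 0.282% in LPD livers and 1.74 ± 0.387% in SPD livers. The diets did not overlap for these 3 shares, and did for the share of Plin3, 2.40 ± 0.242% in LPD livers and 2.45 ± 0.368% in SPD livers. Each share also depends on the level of Plin2, the largest part of the sum, and the Plin4 mRNA itself was not called. The summed level was 499 to 582 CPM per kilobase in LPD livers and 547 to 911 in SPD livers. The ratio of Plin5 to Plin2 was 0.0867 in LPD replicate 1 and 0.113 to 0.118 in the other LPD livers, against 0.0257 to 0.0456 in SPD livers. These shares and ratios are given as a description, with no test.

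**Figure D3:**
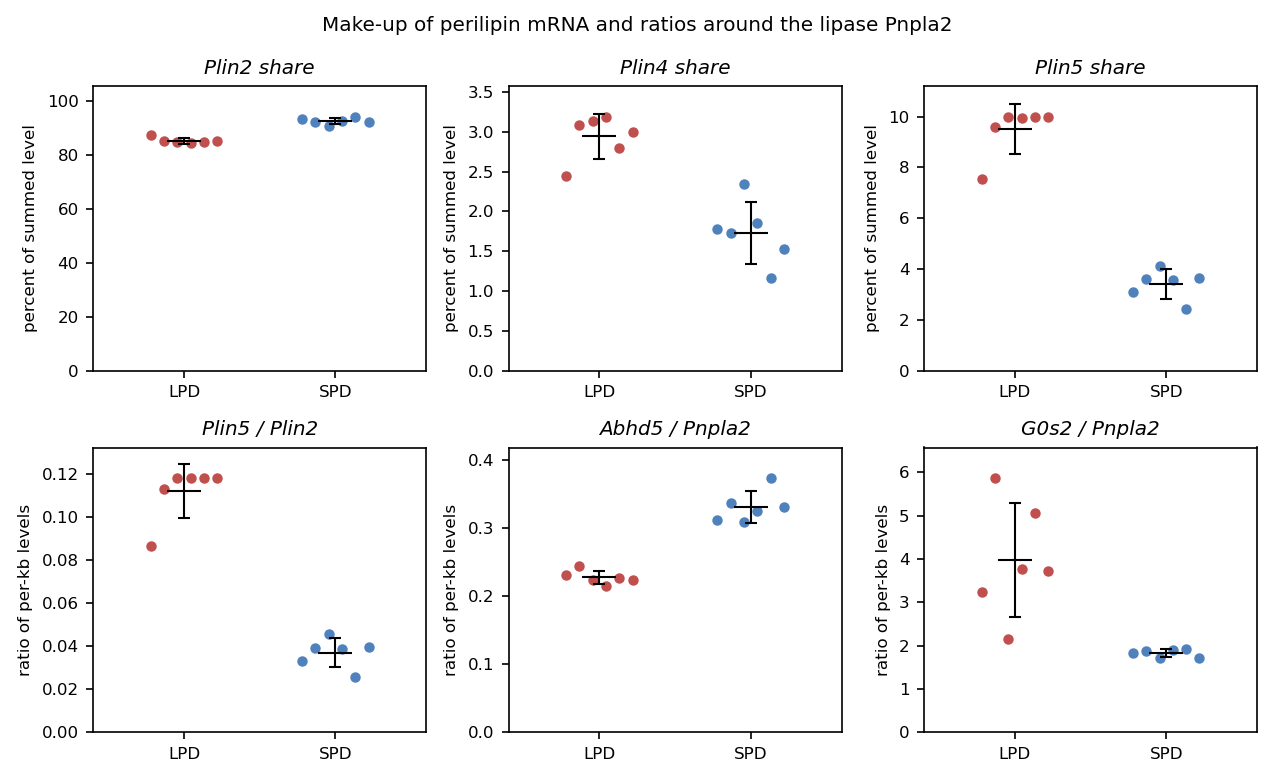
Upper row, the share of Plin2, Plin4 and Plin5 in the summed per-kilobase level of Plin2 to Plin5, in percent; lower row, ratios of per-kilobase levels of Plin5 to Plin2, Abhd5 to Pnpla2 and G0s2 to Pnpla2. Points are livers, LPD on the left in red and SPD on the right in blue, and bars and whiskers are mean and SD (n = 6). The diets do not overlap in these 6 panels, and overlap for the Plin3 share and the summed level, which are not drawn. The Plin4 mRNA itself was not called.

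The genes of 3 perilipins lie close together: Plin4 and Plin5 are neighbours on chromosome 17, on the same strand with 1797 bases between them, and Plin3 lies 160 kb further. Their log2 fold changes were 0.26 for Plin4 (not called), 0.97 for Plin5 and -0.55 for Plin3. Of the 15 other tested genes from 100 kb before Plin4 to 100 kb beyond Plin3, 5 rose, 2 fell and 8 were not called. Among all genes tested 20.7% were called higher and 19.2% lower. Lrg1, the next gene beyond Plin5, which encodes a secreted glycoprotein of the acute phase, had 0.14 ± 0.16 (edgeR adjusted p = 0.529). Hdgfl2, the next gene beyond Plin4, had 0.11 ± 0.069 (edgeR adjusted p = 0.205) and overlaps the end of Plin4 by 17 bases on the other strand. Dpp9, a cytosolic peptidase, made the largest of the 5 rises, 0.49 ± 0.056 (edgeR adjusted p = 9.91e-06), and Uhrf1 (-2.13 ± 0.36) and Chaf1a (-1.24 ± 0.12), which serve DNA replication and chromatin copying, were the 2 that fell.

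**Figure D4:**
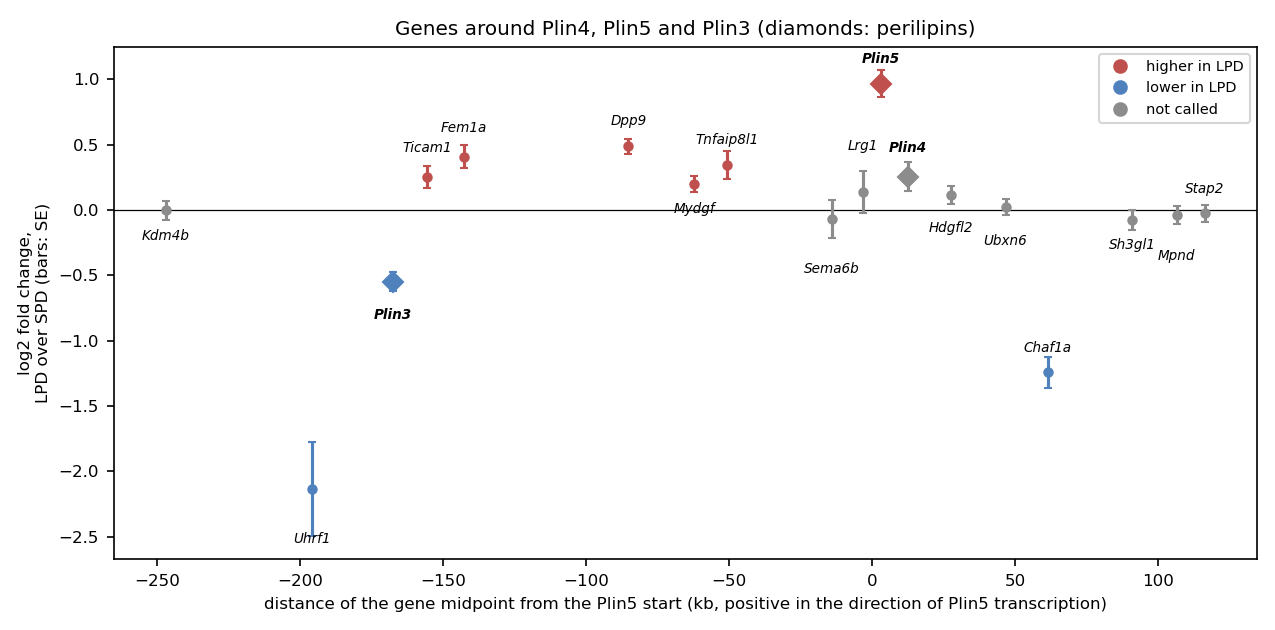
Log2 fold change, LPD over SPD, with its standard error, of the 18 tested genes around Plin4, Plin5 and Plin3, against the distance in kilobases of each gene's midpoint from the start of Plin5. Diamonds are perilipins, red marks a rise, blue a fall and grey no call; Plin5 at 0.97 stands above its direct neighbours Plin4 at 0.26 and Lrg1 at 0.14.

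Of the lipolytic genes, the mRNA of the lipase itself was not called, while those of its co-activator and of hormone-sensitive lipase fell. Pnpla2 (ENSMUSG00000025509, chromosome 7, 141455198 to 141460743, plus strand) had 120, 139 and 154 CPM as the lowest, median and highest value in LPD livers, against 132, 142 and 162 CPM in SPD livers. The diets overlapped in 5 of 6 LPD livers (-0.052 ± 0.065, edgeR adjusted p = 0.566), and the sign turned without LPD replicates 2 and 5 (0.0080). Abhd5 (ENSMUSG00000032540, chromosome 9, 122351608 to 122381524, plus strand), whose protein activates this lipase, had 35.04, 36.9 and 41.2 CPM in LPD livers, against 49.0, 57.3 and 62.6 CPM in SPD livers. No LPD liver reached the lowest SPD liver, and the level was 1.51-fold lower in LPD (-0.60 ± 0.064, edgeR adjusted p = 5.54e-06). The ratio of Abhd5 to Pnpla2, per kilobase, was 0.227 ± 0.00957 in LPD livers and 0.331 ± 0.0233 in SPD livers, with no overlap. An antisense gene that overlaps the end of Abhd5, A730085K08Rik, held at most 5.87 counts in a library.

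Lipe (ENSMUSG00000003123, chromosome 7, 25379527 to 25398710, minus strand) had 10.6, 12.1 and 13.2 CPM in LPD livers, against 16.3, 18.9 and 21.1 CPM in SPD livers. The diets did not overlap, and the level was 1.56-fold lower in LPD (-0.64 ± 0.076, edgeR adjusted p = 1.35e-05). Lipe lies wholly within the antisense gene 4732471J01Rik, which held at most 19.23 counts in a library, against at least 244 for Lipe, and reads of the 2 cannot be told apart if strand was not used in counting. Per kilobase, the ratio of Lipe to Pnpla2 was 0.0617 ± 0.00834 in LPD livers and 0.0924 ± 0.0111 in SPD livers. G0s2, which encodes the inhibitor of the Pnpla2 lipase, rose, with 178 ± 45.8 CPM in LPD livers and 86.8 ± 8.59 CPM in SPD livers (1.03 ± 0.14, edgeR adjusted p = 5.18e-05). The ratio of G0s2 to Pnpla2, per kilobase, was 2.16 to 5.87 in LPD livers, highest in replicate 2, and 1.72 to 1.92 in SPD livers. Mgll, which takes the last step of lipolysis, rose as well, with 403 ± 31.0 CPM in LPD livers and 325 ± 13.8 CPM in SPD livers (0.31 ± 0.059, edgeR adjusted p = 0.000716).

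Pnpla3 made the largest change of the 10. The gene (ENSMUSG00000041653, chromosome 15, 84167837 to 84187236, plus strand) encodes a droplet protein related to the Pnpla2 lipase, a known target of SREBP-1c, and a common variant of the human gene is linked to fatty liver. It had 0.242, 0.457 and 0.774 CPM as the lowest, median and highest value in LPD livers, against 1.78, 5.07 and 6.27 CPM in SPD livers. These levels rested on 5 to 17 counts per LPD library and 39 to 144 per SPD library. Its LPD counts lay on both sides of the filter's minimum count of 10, so Pnpla3 passed the filter through the SPD livers. LPD replicates 2 and 5 were the lowest, LPD replicate 1 the highest of its diet, and SPD replicate 3 stood far below the other SPD livers, but the diets did not overlap. The level was 10.1-fold lower in LPD (-3.34 ± 0.32, edgeR adjusted p = 1.81e-06), and ranked at 14 of 13768, counted from the lowest. Leaving out each library in turn gave log2 fold changes of -3.54 to -3.21 for Pnpla3, and leaving out LPD replicates 2 and 5 together gave -3.08.

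Around Pnpla3, 3 other genes within 100 kb were tested. Pnpla5, which encodes a related lipase and lies 44.7 kb away on the other strand, fell too (-4.33 ± 0.46, edgeR adjusted p = 4.64e-06), with 0.106 ± 0.108 CPM in LPD livers and 2.25 ± 0.856 CPM in SPD livers. LPD livers held at most 0.3 CPM, SPD livers 1.23 to 3.44 CPM, and no library more than 79 counts. Pnpla5 thus passed the filter through the SPD livers, and the size of its fall is imprecise. Samm50, the next gene beyond Pnpla3, which encodes a mitochondrial outer membrane protein, was not called, at 140 ± 5.85 CPM in LPD livers and 143 ± 8.27 CPM in SPD livers (-0.039 ± 0.051, edgeR adjusted p = 0.580). Parvb, beyond it, fell (-0.62 ± 0.16, edgeR adjusted p = 0.00537). The 3 annotated genes that overlap Pnpla3 had no counts in any library.

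The remaining droplet genes were not called. Hsd17b13 (ENSMUSG00000034528, chromosome 5, 103955440 to 103977410, minus strand), a droplet-bound retinol dehydrogenase of hepatocytes, had 801, 928 and 1038 CPM in LPD livers, against 771, 814 and 935 CPM in SPD livers. Of the 6 LPD livers 3 lay within the SPD range (0.15 ± 0.072, edgeR adjusted p = 0.108), and it was called higher without LPD replicate 6 (0.19, edgeR adjusted p = 0.0412). Its paralogue Hsd17b11, which lies 12351 bases away on the same strand, rose, with 312 ± 34.7 CPM in LPD livers and 240 ± 10.9 CPM in SPD livers (0.38 ± 0.070, edgeR adjusted p = 0.000628). Hilpda (ENSMUSG00000043421, chromosome 6, 29272488 to 29275446, plus strand), induced by hypoxia and by fatty acids, had 3.21, 4.396 and 6.47 CPM in LPD livers and 3.32, 4.76 and 5.86 CPM in SPD livers. It rested on 64 to 151 counts in LPD and 73 to 131 in SPD libraries, and its coefficient of variation was 27.1% in LPD and 19.8% in SPD livers, larger than the difference between the diets (-0.046 ± 0.18, edgeR adjusted p = 0.864).

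The order of the levels, per kilobase, differed between the diets. In LPD livers Hsd17b13 was highest, at 542 ± 48.9 CPM per kilobase, before Plin2 at 451 ± 24.4. In SPD livers Plin2 was highest, at 715 ± 134, before Hsd17b13 at 488 ± 37.4. Pnpla2 (52.6 ± 4.48 in LPD and 54.5 ± 3.93 in SPD livers) and Plin5 (50.5 ± 6.79 in LPD and 25.9 ± 3.70 in SPD livers) followed in both diets, and in LPD livers these 2 differed by less than their SDs. Plin4 (15.6 ± 2.15 in LPD and 13.1 ± 2.28 in SPD livers), Plin3 (12.7 ± 1.09 in LPD and 18.6 ± 1.70 in SPD livers) and Abhd5 (11.9 ± 0.773 in LPD and 18.02 ± 1.55 in SPD livers) came next, with Plin4 highest of these 3 in LPD livers and lowest in SPD livers. Plin4 and Abhd5 differed by more than the sum of their SDs in both diets, in opposite directions. Plin3 and Abhd5 did not differ beyond their SDs in either diet, nor did Plin4 and Plin3 differ beyond the sum of their SDs in LPD livers. Hilpda (4.70 ± 1.27 in LPD and 4.86 ± 0.962 in SPD livers) and Lipe (3.22 ± 0.236 in LPD and 5.01 ± 0.489 in SPD livers) did not differ beyond the sum of their SDs in either diet. Pnpla3 was lowest in both diets, at 0.354 ± 0.152 in LPD livers and 3.63 ± 1.20 in SPD livers, where it lay within the sum of the SDs of Hilpda and itself. The highest and lowest of the 10 levels were 1531-fold apart in LPD and 197-fold apart in SPD livers.

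Within a diet, some livers were the lowest or the highest for several of the genes. SPD replicate 3 was the lowest SPD liver for 7 of the 10 mRNAs and SPD replicate 5 the highest for 6, while LPD replicate 3 was the highest LPD liver for 6 and LPD replicate 2 the lowest for 4. Matching counts over all genes tested were not made, so these counts are a description and not a trait of the set. With each diet's mean subtracted, the log2 CPM of all 45 pairs of the genes were correlated over the 12 livers, with permutation within diets (100000 resamples, two-sided, adjusted over the 45 pairs). By Pearson's r 3 pairs passed and by Spearman's rho 0 did, with 14 and 15 pairs at an unadjusted p under 0.05. For each pair r is also given without the livers farthest from the median of its first-named gene, which differ between pairs. Pnpla3 and Abhd5 gave r = 0.865 (permutation p = 0.00088, adjusted p = 0.0396) and rho = 0.853 (permutation p = 0.00171, adjusted p = 0.0769), with r = 0.695 without LPD replicate 2 and SPD replicate 3. The neighbours Plin4 and Plin5 gave r = 0.815 (permutation p = 0.00228, adjusted p = 0.0466) and rho = 0.755 (permutation p = 0.00938, adjusted p = 0.0844), with r = 0.637 without LPD replicate 1 and SPD replicate 4. Plin2 and Hilpda gave r = 0.671 (permutation p = 0.00311, adjusted p = 0.0466) and rho = 0.671 (permutation p = 0.0156, adjusted p = 0.0980), with r = 0.511 without SPD replicates 3 and 5.

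The genes most alike over the 12 livers, by Pearson's r of these diet-centred values, are given as a description, since they were picked as the highest of all genes. For Plin2 they were Aldh1a7 (r = 0.953), S100a10 (0.952) and Taldo1 (0.950), for Pnpla3 Commd10 (0.964), Gnb1 (0.955) and Mvd (0.954), an enzyme of cholesterol synthesis that itself had a log2 fold change of -2.41. For Plin5 they were Baiap2 (0.894), Srrm1 (0.890) and Rnf20 (0.890), and for Plin4 Nol9 (0.875), Gosr1 (0.863) and Ybey (0.858). For Hilpda they were Prkca (0.946), Nrg1 (0.945) and Dusp3 (0.941), and for Pnpla2 Nfkbia (0.897), Ercc3 (0.872) and Pltp (0.866). Spearman's rho for these genes ranged from 0.727, for Pltp, to 0.986, for Mvd. Without LPD replicates 2 and 5 the r values ranged from 0.768, for Pltp with Pnpla2, to 0.966, for Commd10 with Pnpla3.

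Other genes of the droplet surface and of droplet assembly moved in both directions: of 21, 7 rose, 3 fell, 10 were not called and Plin1 was not tested, with a median of 0.0020. Counts of this and the later lists stand beside 20.7% called higher and 19.2% called lower among all genes tested. Besides G0s2 and Hsd17b11, Spg20 rose, which encodes spartin, a protein that delivers droplets to autophagy (48.7 ± 3.76 CPM in LPD and 33.3 ± 2.45 CPM in SPD livers, 0.55 ± 0.063, edgeR adjusted p = 9.52e-06). Cidea, which fuses droplets into larger ones and appears in fatty liver, fell to 33.4 ± 5.22 CPM in LPD livers, against 82.3 ± 31.4 CPM in SPD livers (-1.30 ± 0.20, edgeR adjusted p = 0.000115). Acsl3, an acyl-CoA synthetase that acts at new droplets, fell too (29.6 ± 5.02 CPM in LPD and 56.2 ± 3.36 CPM in SPD livers, -0.92 ± 0.095), as did the methyltransferase-like Mettl7a1 (-0.33 ± 0.086). Cidec, the fusion protein related to Cidea, had 165 ± 48.1 CPM in LPD livers and 190 ± 24.2 CPM in SPD livers and was not called (-0.20 ± 0.17, edgeR adjusted p = 0.348).

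Of 21 other hydrolases of neutral lipids, 6 rose, 5 fell and 10 were not called, with a median of 0.010. The carboxylesterase Ces3a rose to 384 ± 140 CPM in LPD livers, against 70.1 ± 19.4 CPM in SPD livers (2.45 ± 0.22, edgeR adjusted p = 8.75e-07). Hepatic lipase Lipc (79.4 ± 12.8 CPM in LPD and 47.7 ± 2.13 CPM in SPD livers, 0.73 ± 0.089) and the carboxylesterase Ces1g (0.68 ± 0.094) rose as well, and both carboxylesterases belong to families of close paralogues, whose handling in the counting is not stated. Lysosomal acid lipase Lipa fell to 377 ± 15.8 CPM in LPD livers, against 499 ± 37.6 CPM in SPD livers (-0.40 ± 0.059, edgeR adjusted p = 8.00e-05), and the phospholipase Ddhd1 fell by 0.24 on the log2 scale.

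Of 16 transcription factors and cofactors known to act on these genes, 6 rose, 0 fell by edgeR and 10 were not called, with a median of 0.14. Among all genes tested 39.9% were called, 20.7% as higher and 19.2% as lower. At an unadjusted p under 0.05 in edgeR 2 were lower, and 2 were called lower by the DESeq2 Wald test and 0 by limma-voom. The list includes the co-activator Ppargc1a, which was not called, and the deacetylase Sirt1, which was among the 6 that rose (0.34, edgeR adjusted p = 0.00484); both are named after their values were seen. The nuclear receptor Hnf4a, a regulator of hepatocyte genes, rose to 552 ± 46.2 CPM in LPD livers, against 415 ± 12.5 CPM in SPD livers (0.41 ± 0.060, edgeR adjusted p = 8.30e-05). Foxo1, which insulin restrains and which raises Pnpla2 in adipocytes, rose (0.56 ± 0.083), as did Rxra, the partner of PPARs (0.29 ± 0.053), and Mlxipl (0.23 ± 0.084). Ppara (151 ± 8.78 CPM in LPD and 154 ± 7.37 CPM in SPD livers, -0.027 ± 0.053), Pparg (-0.089 ± 0.063) and Srebf1 (-0.074 ± 0.115, 150 ± 8.74 CPM in LPD and 158 ± 37.8 CPM in SPD livers) were not called.

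Targets of these factors were counted in the same way. Of 16 targets of SREBP-1c and ChREBP, the factors that act on Pnpla3, 14 fell and 2 were not called, with a median of -1.29, and 0 rose by edgeR (0 at an unadjusted p under 0.05), DESeq2 or limma-voom. Scd1, the desaturase that makes oleate (-2.72 ± 0.12), Elovl6, which lengthens palmitate (-3.28 ± 0.23), and Acacb, an acetyl-CoA carboxylase (-1.28 ± 0.093), had the smallest adjusted p. Of 18 targets of PPAR alpha, a factor known to act on Plin2 and Plin5, 10 rose, 4 fell and 4 were not called, with a median of 0.21 that was 0.11 without LPD replicates 2 and 5. Cyp4a14 (1.09 ± 0.17), Cyp4a10 (1.16 ± 0.18) and the secreted lipase inhibitor Angptl4 (0.39 ± 0.089) rose, while Ucp2 (-0.54 ± 0.085), Ehhadh (-0.57 ± 0.12) and Pdk4 (-0.85 ± 0.19) fell. Of 16 hypoxia targets, chosen for Hilpda, 3 rose (Bnip3, 0.40 ± 0.060, Ddit4, 1.93 ± 0.32, and Vegfa, 0.28 ± 0.085), 3 fell (Pdk1, -0.57 ± 0.075, Egln3, -0.32 ± 0.098, and Kdm3a, -0.31 ± 0.10) and 10 were not called, with a median of -0.043. Of 12 enzymes of triglyceride synthesis, which fill the droplets, 4 rose and 6 fell, with a median of -0.048. Gpat3 (1.504 ± 0.099), Dgat2 (0.42 ± 0.064) and Agpat3 (0.24 ± 0.057) rose, and Gpam (-1.25 ± 0.12), Mogat2 (-2.08 ± 0.27) and Mogat1 (-1.0 ± 0.18) fell.

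**Figure D5:**
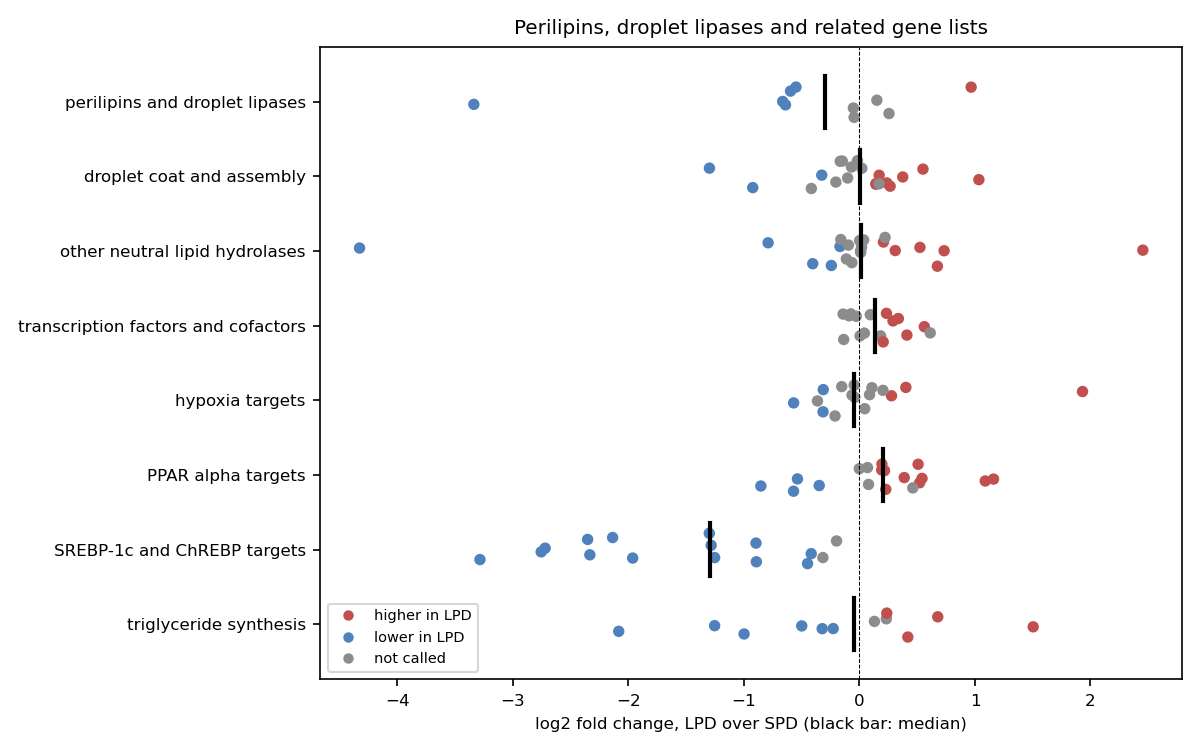
Log2 fold change, LPD over SPD, of every tested gene of the perilipin and lipase set and of 7 related lists; red marks a rise, blue a fall and grey no call, and the black bar is the median. The medians are -0.30 for the perilipins and lipases, -1.29 for SREBP-1c and ChREBP targets and between -0.048 and 0.21 for the others.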

How the data were processed

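RNA of 12 whole livers, 6 mice per diet per the labels, was analysed. The authors deposited 1 matrix of expected counts per gene with no scaling between libraries, beside a gene length column; in each library, 17.1% to 18.9% of values above 0 were fractional. Per the labels' protocols, RNA came from TRIzol extraction with DNase I and went into Illumina TruSeq libraries. The submitters' processing notes name mm10, DESeq2 and TopHat and give no role for them. Counter, annotation and strand handling: not given in the sources used here.

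Sample titles set the groups. The expected counts were rounded to whole numbers and tested with edgeR 4.0.16 under R 4.3.3: filterByExpr (minimum count 10, minimum total 15), TMM scaling, then the quasi-likelihood F test without covariates, with Benjamini-Hochberg adjustment over the 13768 genes tested. Each SE was taken as |log2 fold change| over the root of F. CPM used TMM-scaled totals, log2 CPM added a prior count of 2, and levels per kilobase used the deposited lengths, whose derivation is not stated. Positions come from GENCODE M21 (GRCm38, which mm10 denotes), by gene ID. The fit was run on simulated data with far fewer changed genes than were called in these livers. That run does not bear on scaling where many genes change, and its outcome is not reported here.

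The genes and lists were chosen with earlier results of these data known. Named genes are the 10 of the set, up to 3 called in each direction per list with the smallest adjusted p, always G0s2, Cidec, Mgll, Angptl4, Srebf1, Mlxipl, Ppara and Pparg, and the 3 most alike genes (mean log2 CPM of at least 1) for 6 of the set; Hsd17b11 and chromosomal neighbours were described by position. Not every gene that the rule names is reported here. Alternatives were DESeq2 size factors, upper quartile scaling, no filter, a filter of 1 CPM in 6 libraries, limma-voom (limma 3.58.1, sample weights), a replicate block, DESeq2's own Wald test (1.42.0), each library omitted in turn, LPD replicate 1 as SPD, codes SP1 and LP4 alone, and LPD replicates 2 and 5 omitted.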

Additional observations from a re-analysis of the deposited data

Results flagged for a closer look

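Over the 10 genes and 9 shares, ratios and sums, 38 groups of 6 livers were searched for a liver far from the others of its diet, where chance flags about 1 in 20 groups, and 4 were found. Pnpla3 was at 1.78 CPM in SPD replicate 3, against 4.70 to 6.27 CPM in the other SPD livers. The other 3 were in LPD replicate 1, the liver with conflicting labels, and share the same genes. Its ratio of Plin5 to Plin2 was 0.0867, against 0.113 to 0.118 in the other LPD livers. Its share of Plin2 among the 4 perilipins was 87.2%, against 84.4% to 85.1%, and its share of Plin5 7.56%, against at least 9.59%. All 3 of these values lay between those of the other LPD livers and those of the SPD livers.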

How the results depend on the processing

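The falls of Plin2, Plin3, Pnpla3, Abhd5 and Lipe and the rise of Plin5 were called under all 22 alternatives, so the number of genes of the set called lower was 5 throughout. The number called higher was 1 to 2 with each library left out in turn and 2 with LPD replicate 1 counted as SPD, through Plin4 or Hsd17b13. The libraries with codes SP1 and LP4 alone, which are fewer, gave 1827 genes higher and 1693 lower, against 2850 and 2646 with all; no code occurs in both diets, so a code and a diet cannot be told apart. The sign of Hilpda was not stable: -0.17 to 0.038 with each library left out, 0.010 by limma-voom, 0.18 with codes SP1 and LP4 alone and 0.13 without LPD replicates 2 and 5. Pnpla2 turned to 0.0080 without LPD replicates 2 and 5. Of the lists, codes SP1 and LP4 alone gave 4 droplet coat genes higher, 2 hydrolases lower, 1 hypoxia target lower, and 6 PPAR alpha targets higher and 2 lower. Without LPD replicates 2 and 5, 6 droplet coat genes were lower and the median of PPAR alpha targets was 0.11. Transcription factors and cofactors called lower numbered 2 by DESeq2 and 0 to 1 with each library left out, and their median was 0.019 with LPD replicate 1 counted as SPD. The cause of these shifts was not tested. Replicate numbers did not pair the livers: the correlation of same-numbered livers' deviations was -0.0539 to 0.0968 and 1 of 6 numbers matched best with itself. With the replicate block 2668 genes were higher and 2562 lower, and no call of the 10 genes changed. Counts of 5 to 17 limit the precision of Pnpla3 in LPD livers.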
